A study of Mus musculus with 9 samples.

Results

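The genes described here encode 10 core proteins of stress granules: G3bp1, G3bp2, Caprin1, Usp10, Ubap2l, Tia1, Tial1, Atxn2, Atxn2l and Ddx3x. They were listed by name, not by their values, although earlier results of these data were known. All 10 were found among the 22396 genes of the count table. All 10 also passed the filter on low counts, which kept 12744 genes.

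Stress granules are cytoplasmic condensates of RNA and protein that assemble when translation initiation is blocked and untranslated mRNAs are released from ribosomes. G3BP proteins bind this RNA and nucleate the granules. Caprin-1 and UBAP2L promote assembly with them, USP10 competes for the same surface of G3BP, and TIA1, TIAL1, ataxin-2, ataxin-2-like protein and DDX3X are RNA-binding partners that join the condensate.

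The libraries came from B16F10 cells, a mouse melanoma cell line, in which FLAG-tagged RIG-I was stably expressed. RIG-I is a cytosolic sensor of viral and aberrant cellular RNA, and the study asked which RNA it holds when OSGEP is lost and how stress granules take part. OSGEP is the enzyme of the KEOPS complex, which places threonylcarbamoyl groups on the adenosine next to the anticodon of tRNAs that read codons beginning with A. RNA that came down with FLAG antibody was sequenced as rRNA-depleted, stranded total RNA.

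Cells carried a control hairpin (shCtr) or 1 of 2 hairpins against Osgep (shOSGEP#1 and shOSGEP#2), and all 3 groups carried the tagged RIG-I. Each group had 3 replicates from independent experiments, which gives 9 libraries. The counts are therefore a share of RNA recovered with RIG-I and not of RNA in the cell. More of an mRNA in the cells and more of it on RIG-I cannot be told apart here, nor can fewer cells and less RNA per cell, since RNA of the input lysate was not analysed here. The mRNAs of granule proteins were counted, not the proteins or the granules.

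The shCtr libraries held 40333037, 47750758 and 41805753 counts, and those of shOSGEP#1 held 34551436, 50224299 and 30697653. In shOSGEP#2, replicates 1 and 3 held 25460689 and 14914731 counts, but replicate 2 held 568995. In that shallow library 4196 genes had a count, against 11733 to 13958 in the other 8. A limit of 3 counts equals 5.27 CPM (counts per 1000000 counts) there and at most 0.201 CPM elsewhere. Its values are therefore given apart, and means and tests use the other 8 libraries unless stated. Means are given ± SD, with n = 3 for shCtr and shOSGEP#1 and n = 2 for shOSGEP#2.

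Osgep, the gene targeted by both hairpins, was at 19.1, 19.9 and 15.5 CPM in shCtr. It was at 3.76, 1.15 and 1.53 CPM in shOSGEP#1, and at 0.0786 and 2.88 CPM in shOSGEP#2, with 0 counts in the shallow library. Every deep library with a hairpin against Osgep thus lay below every shCtr library, as the labels say. The log2 fold change was −3.10 with shOSGEP#1 (edgeR adjusted p = 0.0128) and −3.84 with shOSGEP#2 (edgeR adjusted p = 0.015), both short of the threshold of 0.01. DESeq2 on the same 8 libraries called the second (adjusted p = 0.00904) and not the first (adjusted p = 0.0151). Ddx58, which encodes RIG-I, was at 214 ± 55.5 CPM in shCtr, 258 ± 60.3 in shOSGEP#1 and 415 ± 19.7 in shOSGEP#2. All groups also carried the tagged RIG-I, the protein pulled down. Whether mRNA of that construct is part of the Ddx58 counts is not given in the sources used here. The log2 fold change of Ddx58 was 0.26 with shOSGEP#1 (edgeR adjusted p = 0.427) and 0.86 with shOSGEP#2 (edgeR adjusted p = 0.0239). The latter was past the threshold with DESeq2 on the same 8 libraries (adjusted p = 0.00283). The shallow library had 0 counts of Ddx58 where the mean share in the other shOSGEP#2 libraries would give 236. With all 9 libraries the edgeR log2 fold change with shOSGEP#2 was 0.29.

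The melanocytic identity of the cells was visible, since all 8 melanocytic markers were detected in the 8 deep libraries. Gpnmb was the most abundant of them in shCtr replicates 1 and 2 and in all of shOSGEP#1, and Tyrp1 in the other deep libraries. Their summed level was 9216 ± 1350 CPM in shCtr, 12135 ± 1567 in shOSGEP#1 and 4164 ± 632 in shOSGEP#2. In the shallow library 6 of 8 were detected at a sum of 2511 CPM, with Sox10 the most abundant and Tyr and Mitf at 0. With shOSGEP#2 the melanosome and pigment genes Mlana, Pmel, Tyr, Dct and Gpnmb and the lineage factor Sox10 fell against shCtr, with log2 fold changes of −1.41, −2.06, −3.83, −2.00, −1.05 and −0.99. Tyrp1 and Mitf did not pass in edgeR but did with DESeq2 on the same 8 libraries. With shOSGEP#1 Tyr fell by 2.59 on the log2 scale, while Gpnmb rose by 1.20. This difference between the hairpins lies beside each shOSGEP#2 result that follows, and its part in them was not tested.

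Markers of other cell types were low. Fibroblast markers summed to 5.58 ± 1.15, 4.49 ± 1.2 and 25.1 ± 12.3 CPM in shCtr, shOSGEP#1 and shOSGEP#2. Both deep shOSGEP#2 libraries, at 16.4 and 33.8 CPM, were above all of shCtr and shOSGEP#1, and the part of these markers in the results was not tested. Col1a2 was the most abundant of these in 5 of the 8 deep libraries, at up to 18.1 CPM, and Col1a1 alone gave 68.5 CPM in the shallow library. Leukocyte markers summed to 1.31 ± 0.149, 2.84 ± 0.43 and 1.62 ± 1.12 CPM, and Itgam was at 0 in all 8 deep libraries. All shOSGEP#1 libraries (2.41 to 3.27 CPM) were above all shCtr libraries (1.14 to 1.42 CPM), and the part of this was not tested. Endothelial markers had group means of at most 1.23 CPM in sum, and the keratinocyte markers Krt5 and Krt1 were at 0 in all 8.

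Per kilobase of exon, the mRNA of the RNA helicase DDX3X was the most abundant of the 10 in shCtr, at 113 ± 14.2 CPM per kb. It was followed by Atxn2l at 77.7 ± 9.64, Caprin1 at 76.7 ± 7.13 and G3bp1 at 46.8 ± 1.33 CPM per kb. These 4 stood above 91.7% or more of the genes tested. The remaining 6 were lower, with G3bp2 at 12.5 ± 1.3, Tial1 at 10.3 ± 0.344, Usp10 at 8.99 ± 1.25, Ubap2l at 8.85 ± 2.13, Atxn2 at 7.48 ± 0.885 and Tia1 at 4.96 ± 0.523 CPM per kb. Neighbours whose shCtr libraries overlapped, and which were therefore not separated by their spread, were Atxn2l and Caprin1, Tial1 and Usp10, Usp10 and Ubap2l, and Ubap2l and Atxn2. The order rests on the length used: per kb of the transcript with the longest coding sequence, Caprin1 led at 193 CPM per kb, ahead of Ddx3x at 127, and Tial1 came last at 16. Together the 10 mRNAs took 2710 ± 95.2 CPM in shCtr, 2787 ± 88.7 in shOSGEP#1 and 2480 ± 342 in shOSGEP#2, and 1424 CPM in the shallow library.

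**Figure D1:**
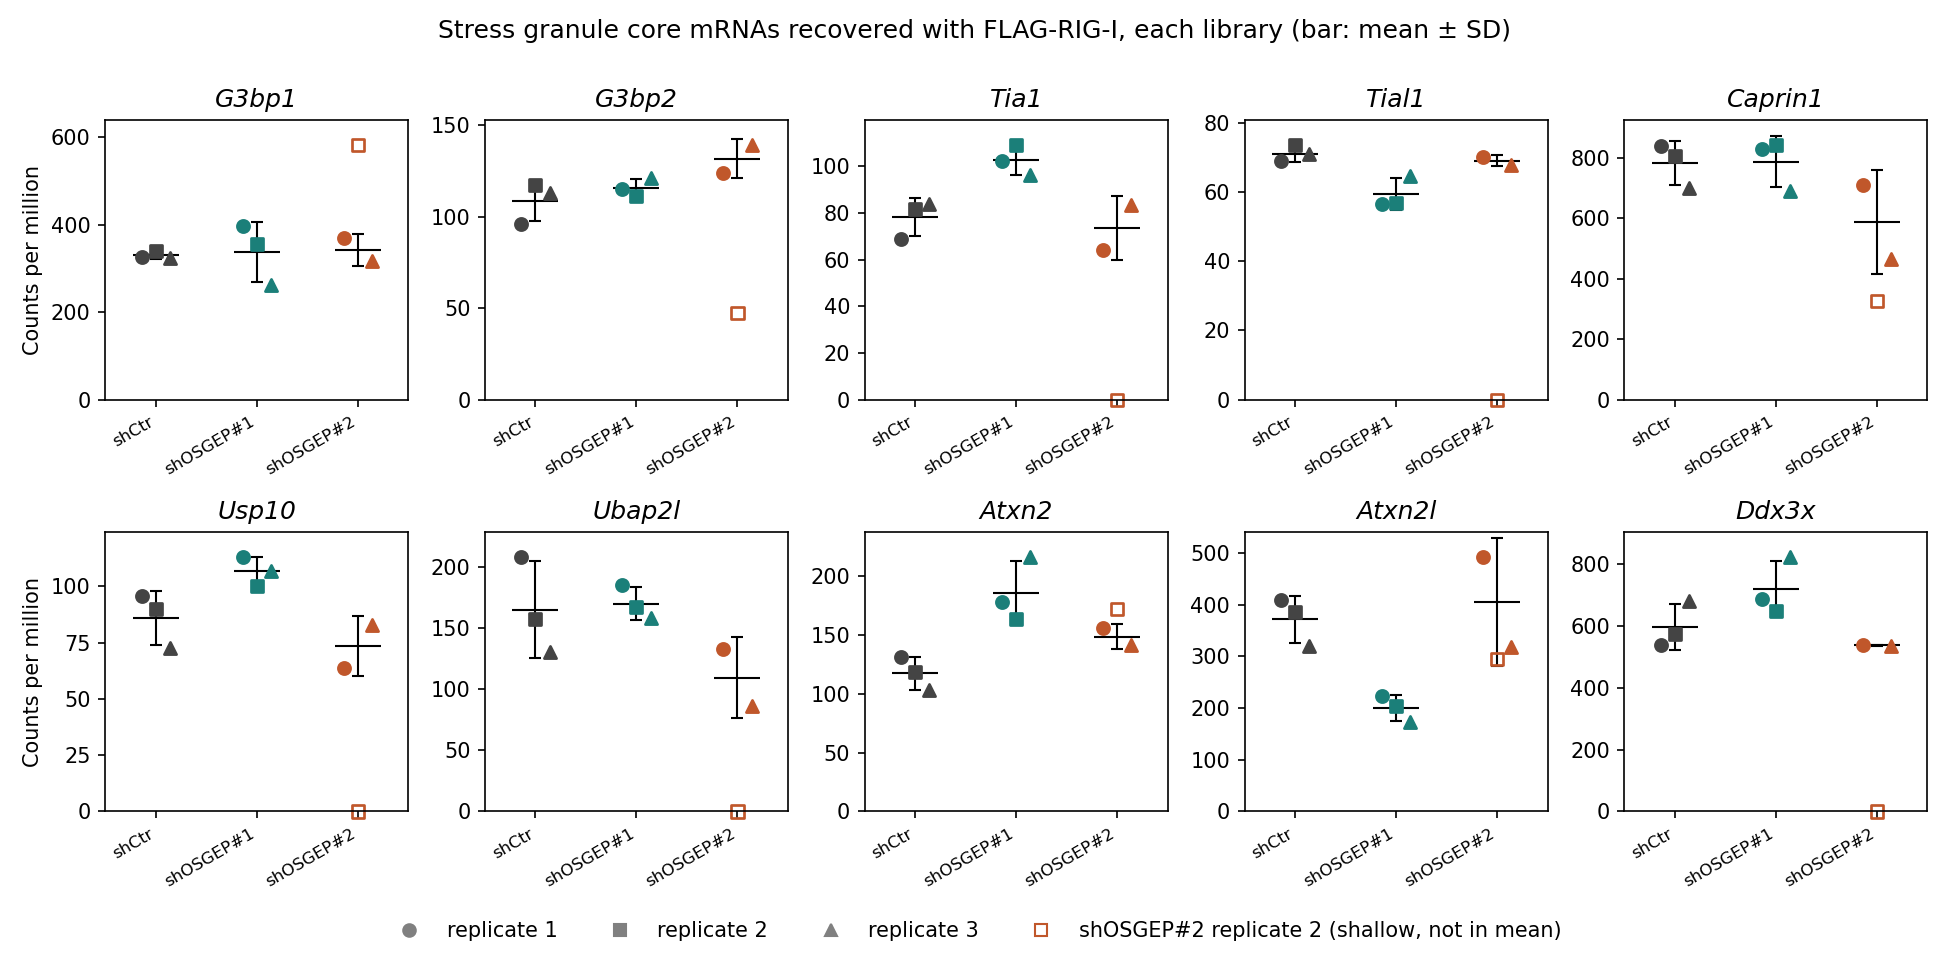
CPM of each stress granule core mRNA in every library, with 1 panel per gene and the groups along the horizontal axis. Marker shape gives the replicate, bars give the mean ± SD of the deep libraries, and the open square is the shallow library, shOSGEP#2 replicate 2, which is not in the mean; Atxn2l is lower in all 3 shOSGEP#1 libraries than in every shCtr library.

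The first question was whether depletion of OSGEP with shOSGEP#1 altered which of these mRNAs RIG-I held. Of the 10, Atxn2l alone passed the test against shCtr, and it fell. Across all genes tested 9.67% passed, 5.00% higher and 4.67% lower, so 1 of 10 is near the background. At an unadjusted p under 0.05 there were 3 members, beside 34.9% of all genes. The median log2 fold change of the members was 0.056 (range −0.90 to 0.65), beside 0.0021 over all genes. Libraries of shOSGEP#1 and shCtr did not overlap for 5 of the 10, beside 45.3% of all genes: Tia1, Usp10 and Atxn2 were higher and Tial1 and Atxn2l lower with shOSGEP#1.

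With shOSGEP#2 none of the 10 (0 members) passed the edgeR test against shCtr, while 9.55% of all genes did, 5.66% higher and 3.89% lower. Of the genes that passed, 59.2% were higher, and 70.6% were when libraries were scaled by their totals. Caprin1 and Ubap2l, 2 members, were at an unadjusted p under 0.05, beside 35.6% of all genes, and DESeq2 on the same 8 libraries and limma-voom on all 9 also called 0. The median of the members was −0.16 (range −0.68 to 0.24), beside −0.057 over all genes. These medians were −0.066 and 0.035 with library totals, and −0.71 and −0.37 in edgeR with all 9 libraries. Only G3bp2 and Atxn2, both higher, had deep libraries that did not overlap with shCtr, 2 of 10 beside 52.3% of all genes.

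The comparison of shOSGEP#2 with shOSGEP#1 tests the difference between the hairpins itself, which the pair of comparisons with the same shCtr libraries does not. Here Atxn2l alone passed, and it was higher with shOSGEP#2, 1 of 10 beside 10.8% of all genes (6.23% higher and 4.56% lower). The median of the members was −0.45, beside −0.043 over all genes, and 7 of the 10 were at an unadjusted p under 0.05, beside 37.1% of all genes. The medians were −0.37 and 0.039 with library totals, and −0.66 and −0.35 in edgeR with all 9 libraries. Libraries did not overlap for 8 of 10, beside 49.6% of all genes, with G3bp2, Tial1 and Atxn2l higher and Tia1, Usp10, Ubap2l, Atxn2 and Ddx3x lower with shOSGEP#2.

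The edgeR calls above were made without the shallow library. With all 9 libraries edgeR called 0 genes in each of the 3 comparisons (0% of 12337 tested), and 620, 1240 and 1325 genes were at an unadjusted p under 0.05, among them 1, 0 and 0 members. DESeq2 on all 9 libraries called 122, 349 and 413 genes and 0 members each time. limma-voom with sample quality weights on all 9 libraries called Atxn2l and Atxn2 with shOSGEP#1 and 0 members in the other comparisons.

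**Figure D2:**
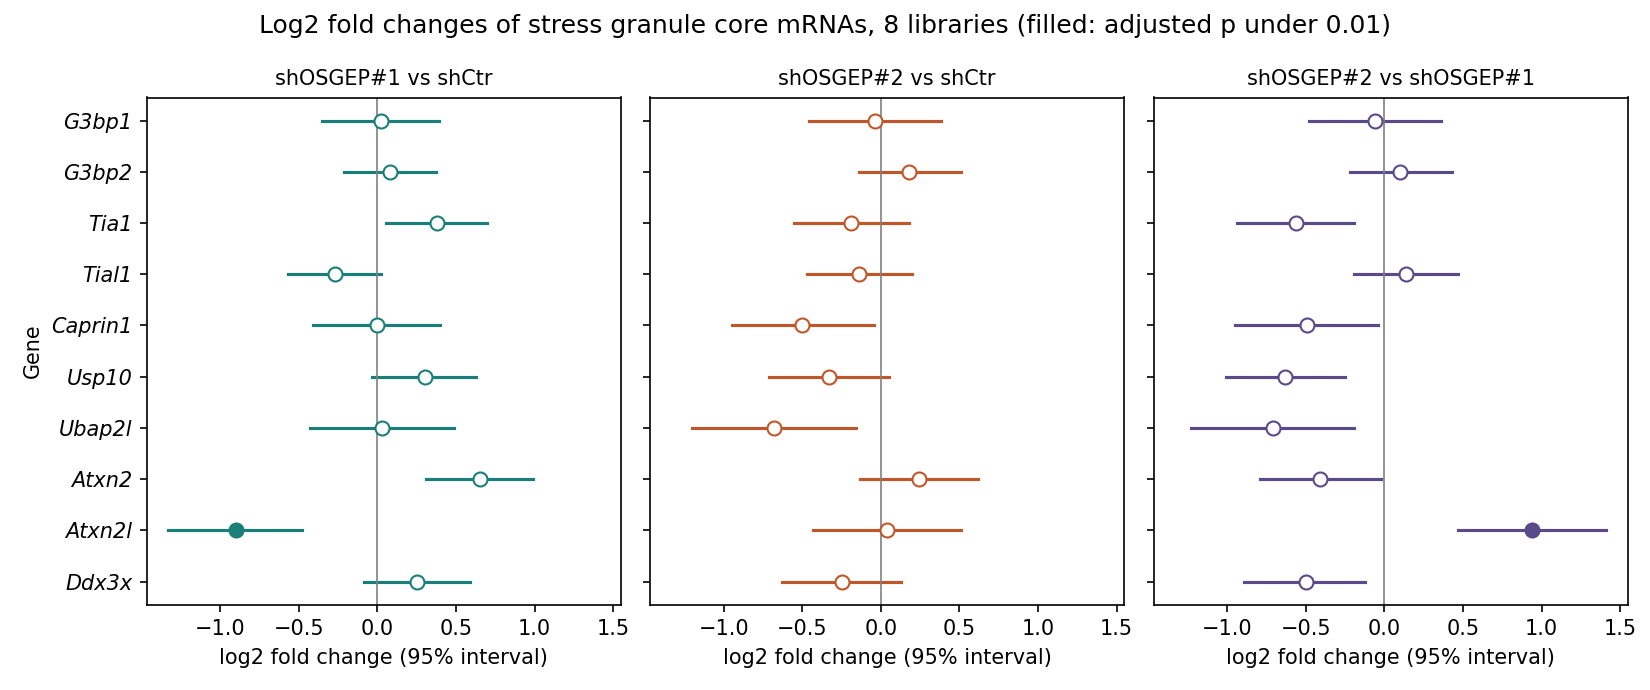
Log2 fold changes of the 10 stress granule core mRNAs with 95% intervals from the edgeR fit of 8 libraries, in 1 panel per comparison. Filled points passed an adjusted p of 0.01 over all genes tested: Atxn2l at −0.90 with shOSGEP#1 against shCtr and at 0.94 with shOSGEP#2 against shOSGEP#1.

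The call was on Atxn2l, of the ataxin-2 family. Ataxin-2 and ataxin-2-like protein are paralogs that bind the poly(A)-binding protein and take part in granule assembly. Atxn2l (ENSMUSG00000032637) was at 409, 385 and 320 CPM in shCtr, at 224, 204 and 174 CPM in shOSGEP#1, and at 492 and 318 CPM in shOSGEP#2, with 295 CPM in the shallow library. The shOSGEP#1 libraries were all below the shCtr libraries, while those of shOSGEP#2 lay on either side of them. The mRNA fell with shOSGEP#1 to 0.535 of its shCtr level, a log2 fold change of −0.90 (SE 0.194, 95% interval −1.33 to −0.48, edgeR adjusted p = 0.00788). With shOSGEP#2 the log2 fold change against shCtr was 0.038 (95% interval −0.43 to 0.51, edgeR adjusted p = 0.92). The difference between the hairpins passed the test, at 0.94 (SE 0.212, 95% interval 0.47 to 1.41, edgeR adjusted p = 0.00933).

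Both Atxn2l calls lay close to the threshold. Against shCtr, leaving out any 1 of the 3 shCtr or 3 shOSGEP#1 libraries kept the log2 fold change between −1.0 and −0.81 but ended the call, with edgeR adjusted p from 0.0123 to 0.0373. The difference between hairpins was no longer called without any 1 of the 3 shCtr, 3 shOSGEP#1 or shOSGEP#2 replicate 1 libraries (edgeR adjusted p from 0.0118 to 0.081), and was 0.55 without shOSGEP#2 replicate 1. In the edgeR fit of all 9 libraries the values were −0.91 (adjusted p = 0.92) and 0.68 (adjusted p = 0.57). Every shOSGEP#1 library also had a higher share of mitochondrially encoded counts (0.347% to 2.96%) than every shCtr library (0.147% to 0.303%). The deep shOSGEP#2 libraries were at 0.211% and 0.268%, and the part of this share was not tested.

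Atxn2 (ENSMUSG00000042605) was at 131, 118 and 103 CPM in shCtr, at 178, 163 and 216 CPM in shOSGEP#1, and at 156 and 141 CPM in shOSGEP#2, with 172 CPM in the shallow library. All shOSGEP#1 and shOSGEP#2 libraries thus lay above the shCtr libraries. The log2 fold change with shOSGEP#1 was 0.65 (95% interval 0.31 to 0.99), and its edgeR adjusted p of 0.0131 missed the threshold, while DESeq2 on the same 8 libraries gave an adjusted p of 0.000816. With shOSGEP#2 it was 0.24 (edgeR adjusted p = 0.335), and the difference between hairpins was −0.41 (edgeR adjusted p = 0.116).

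Per kb of exon, Atxn2 was at 0.0975, 0.0932 and 0.0983 of the Atxn2l level in the shCtr libraries. The ratio was 0.242, 0.244 and 0.38 in shOSGEP#1 and 0.0965 and 0.135 in shOSGEP#2. In every shOSGEP#1 library the ratio was above every shCtr and shOSGEP#2 library, whereas shOSGEP#2 overlapped shCtr. How often ratios of other genes separate in this way was not computed. Per kb of transcript its means were 0.275 ± 0.00785, 0.825 ± 0.225 and 0.33 ± 0.0769, so the distance between the paralogs rests on the length used. The length scales every library alike, so by construction it cannot alter the change of the ratio between groups. Among the 10 mRNAs Atxn2l went from place 2 per kb of exon in shCtr, or 3 per kb of transcript, to place 4 on both scales in shOSGEP#1, where it overlapped G3bp1 per kb of exon.

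G3bp1 (ENSMUSG00000018583), the central nucleator and the usual marker of the granules, was at 326, 341 and 324 CPM in shCtr. It was at 396, 356 and 262 CPM in shOSGEP#1 and at 369 and 317 CPM in shOSGEP#2. The shOSGEP#1 libraries spread to both sides of shCtr, with replicate 3 lowest, and both groups overlapped shCtr. The log2 fold change was 0.02 with shOSGEP#1 (95% interval −0.35 to 0.39, edgeR adjusted p = 0.948) and −0.038 with shOSGEP#2 (95% interval −0.46 to 0.38, edgeR adjusted p = 0.907). shOSGEP#1 replicate 3 also had the highest share of mitochondrially encoded counts, 2.96% against 0.347% and 0.445% in the other shOSGEP#1 libraries. All 3 were above shCtr (0.147% to 0.303%) and deep shOSGEP#2 (0.211% and 0.268%), and the shallow library was at 0.633%. The part of this share in the values was not tested.

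G3bp2, its close paralog, was at 95.9, 117 and 113 CPM in shCtr, at 115, 111 and 121 in shOSGEP#1 and at 124 and 139 in shOSGEP#2. Both deep shOSGEP#2 libraries were above shCtr, but the log2 fold change of 0.18 did not pass (95% interval −0.14 to 0.51, edgeR adjusted p = 0.404). The shallow library, at 47.5 CPM, was below every shCtr library, and with all 9 libraries the value was −0.22 (edgeR adjusted p = 0.892). Per kb of exon the ratio of G3bp1 to G3bp2 was 3.75 ± 0.361 in shCtr, 3.6 ± 0.824 in shOSGEP#1 and 3.21 ± 0.601 in shOSGEP#2, which overlapped. Per kb of transcript it was 0.861 ± 0.0829, 0.824 ± 0.189 and 0.736 ± 0.138, so which of the pair is more abundant depends on the length used, 8659 exon bases or 1884 transcript bases for G3bp2. A noncoding gene on the opposite strand, Gm26582, shares 2050 of the 8659 exon bases of G3bp2. The kit keeps strand, but whether counting used it is not given in the sources used here.

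Caprin-1 and USP10 bind G3BP1 at the same site, the former promoting and the latter opposing assembly. Caprin1 was at 841, 808 and 702 CPM in shCtr, at 829, 843 and 691 in shOSGEP#1, and at 711 and 466 in shOSGEP#2. shOSGEP#2 replicate 3 was the lowest of the deep libraries and replicate 1 lay within the shCtr range. The log2 fold change with shOSGEP#1 was −0.0052 (edgeR adjusted p = 0.988). It was 0.0059 under the RLE scaling and 0.0073 with library totals, so without a direction. With shOSGEP#2 the value was −0.50 (95% interval −0.95 to −0.045, edgeR adjusted p = 0.11), and between −0.88 and −0.20 on leaving out 1 library.

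Usp10 was at 95.6, 89.8 and 72.6 CPM in shCtr, at 113, 100 and 107 in shOSGEP#1 and at 63.9 and 82.8 in shOSGEP#2. All shOSGEP#1 libraries were above the shCtr and shOSGEP#2 libraries, and shOSGEP#2 overlapped shCtr. Against shCtr the log2 fold change was 0.30 with shOSGEP#1 (edgeR adjusted p = 0.188) and −0.33 with shOSGEP#2 (edgeR adjusted p = 0.197). Between hairpins it was −0.63 (95% interval −1.01 to −0.25, edgeR adjusted p = 0.0244), past the threshold with DESeq2 on the same 8 libraries (adjusted p = 0.00612).

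Ubap2l, whose protein acts with G3BP1 or upstream of it in assembly, was at 208, 157 and 130 CPM in shCtr, at 185, 167 and 158 in shOSGEP#1 and at 133 and 86 in shOSGEP#2. The shCtr libraries themselves covered a wide range, and only shOSGEP#2 replicate 3 lay outside it. Against shCtr its log2 fold change was 0.031 with shOSGEP#1 (edgeR adjusted p = 0.936) and −0.68 with shOSGEP#2 (95% interval −1.20 to −0.16, edgeR adjusted p = 0.0646). The difference between hairpins was −0.71 (95% interval −1.23 to −0.19, edgeR adjusted p = 0.0522). Leaving out 1 library gave −1.07 to −0.38 with shOSGEP#2 against shCtr and −1.10 to −0.40 between hairpins. With all 9 libraries the edgeR values were −1.24 and −1.26. With a replicate block, edgeR called the difference between hairpins (adjusted p = 0.00951).

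TIA1 and TIAL1 are paralogous RNA-binding proteins with prion-like domains that repress translation of bound mRNAs. Tia1 was at 68.7, 81.7 and 84 CPM in shCtr, at 102, 109 and 96.4 in shOSGEP#1 and at 63.9 and 83.2 in shOSGEP#2. Tial1 was at 68.9, 73.6 and 70.9 CPM in shCtr, at 56.6, 56.8 and 64.7 in shOSGEP#1 and at 70.2 and 67.9 in shOSGEP#2. With shOSGEP#1 the pair thus parted, Tia1 above and Tial1 below every shCtr library, but neither passed the test. The log2 fold changes with shOSGEP#1 were 0.38 for Tia1 (edgeR adjusted p = 0.0927) and −0.27 for Tial1 (edgeR adjusted p = 0.173). Between hairpins Tia1 was at −0.56 (95% interval −0.94 to −0.19, edgeR adjusted p = 0.0338).

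Per kb of exon, Tia1 was at 0.437, 0.487 and 0.519 of the Tial1 level in shCtr, 0.791, 0.839 and 0.653 in shOSGEP#1, and 0.399 and 0.537 in shOSGEP#2. As for the ataxin-2 pair, every shOSGEP#1 library lay above the others. Among single genes 45.3% did not overlap between shOSGEP#1 and shCtr, and no such share was computed for ratios. Per kb of transcript the means were 1.09 ± 0.0935, 1.73 ± 0.219 and 1.06 ± 0.221, so which of the pair is more abundant again depends on the length used. Tia1 shares 352 of its 15750 exon bases with Gm44790 on the same strand, so a part of either count may belong to the other.

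Ddx3x, an X-linked helicase that takes part in translation initiation, was at 538, 574 and 682 CPM in shCtr, at 687, 650 and 824 in shOSGEP#1 and at 539 and 537 in shOSGEP#2. shOSGEP#2 was below all of shOSGEP#1, and both groups overlapped shCtr, the shallow library at 0 apart. Its log2 fold change was 0.25 with shOSGEP#1 (edgeR adjusted p = 0.267), −0.25 with shOSGEP#2 (edgeR adjusted p = 0.327) and −0.50 between hairpins (95% interval −0.89 to −0.12, edgeR adjusted p = 0.058). Its near-identical copies took few counts: D1Pas1 had 0 in every library and Ddx3y at most 0.163 CPM, although counting may assign reads that the copies share to any of them.

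Of the remaining paralogs, Caprin2 was low but passed the test with shOSGEP#2. It was at 8.43, 7.1 and 7.42 CPM in shCtr, at 12.3, 14.2 and 12.2 in shOSGEP#1 and at 21.8 and 17.4 in shOSGEP#2, so that the deep libraries of the 3 groups did not overlap. The shallow library had 0 counts, and with all 9 libraries the value with shOSGEP#2 was 0.78 and not called. With shOSGEP#2 it rose by 1.27 on the log2 scale (95% interval 0.77 to 1.78, edgeR adjusted p = 0.00325), and with shOSGEP#1 the value was 0.74 (edgeR adjusted p = 0.0276), past the threshold with DESeq2 on the same 8 libraries (adjusted p = 0.00455) and with limma-voom on all 9 (adjusted p = 0.00128). The shOSGEP#2 call ended without any 1 of the 3 shCtr libraries or without shOSGEP#2 replicate 1, where the log2 fold change was between 1.06 and 1.45 over all libraries left out and the highest edgeR adjusted p was 0.0204. Caprin2 nevertheless stood at only 0.00708 ± 0.000662 of the Caprin1 level per kb of exon in shCtr and 0.0246 ± 0.00341 in shOSGEP#2, or 0.0108 ± 0.00101 and 0.0375 ± 0.00519 per kb of transcript. Ubap2 was at 146 ± 18.3, 146 ± 30 and 178 ± 62.5 CPM, and its log2 fold changes of −0.017 and 0.20 did not pass (edgeR adjusted p = 0.966 and 0.593). Its ratio to Ubap2l per kb of exon was 3.12, 3.39 and 4.01 in shCtr, 3.53, 3.67 and 2.74 in shOSGEP#1 and 6.49 and 6.04 in shOSGEP#2. Both deep shOSGEP#2 libraries thus lay above all others, and how often other ratios do so was not computed. Per kb of transcript the means were 0.842 ± 0.11, 0.795 ± 0.119 and 1.5 ± 0.0752, so which of this pair is more abundant also depends on the length used.

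In the shallow library the 10 mRNAs stood in other proportions. Whether its column is complete is not given in the sources used here. Its 568995 counts included 0 of Tia1, Tial1, Usp10, Ubap2l and Ddx3x, where the mean share in replicates 1 and 3 would give 41.9, 39.3, 41.7, 62.3 and 306. A count of 0 allows up to 5.27 CPM there, for counting error only. G3bp1 instead had 331 counts where 195 would be given, or 582 CPM (95% Wilson interval 522 to 648), while Caprin1 had 186 where 335 would be and G3bp2 had 27 where 75.1 would be. So 5 of 10 members were at 0, and of the 3906 tested genes for which the other shOSGEP#2 libraries would give at least as many counts as for the lowest member, 34.3% were.

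Other granule proteins were followed in 3 lists. Of 46 stress granule partners, all tested, 4 rose and 1 fell with shOSGEP#1, 1 rose and 2 fell with shOSGEP#2, and 0 were higher and 3 lower with shOSGEP#2 against shOSGEP#1. Over all genes 9.67%, 9.55% and 10.8% passed in these comparisons, so the partners' shares in edgeR were near or below the background. DESeq2 on the same 8 libraries called more, with Fxr1, Rbm3 and Cirbp higher and Rack1 and Prrc2b lower with shOSGEP#1. With shOSGEP#2 it added Prrc2a higher and Rack1, Hnrnpa1 and Eif3b lower. Between hairpins it called Prrc2a and Prrc2b higher and more partners lower. Over all 15710 genes it called 2419, 2405 and 2592. Unlike the 12744 genes of the edgeR test, the 15710 include genes with few counts and no DESeq2 adjusted p, which could not be called. The median edgeR log2 fold changes of the partners were 0.16, −0.074 and −0.33, beside 0.0021, −0.057 and −0.043 over all genes. An unadjusted p under 0.05 was reached by 17, 18 and 23, beside 34.9%, 35.6% and 37.1% of all genes. With all 9 libraries edgeR called 0 partners in each comparison, with 3, 7 and 7 at an unadjusted p under 0.05, beside 5.03%, 10.1% and 10.7% of all genes. Pabpc1, the cytoplasmic poly(A)-binding protein, was the highest of them per kb, with 1529 ± 286, 2136 ± 300 and 1329 ± 432 CPM in shCtr, shOSGEP#1 and shOSGEP#2. It did not pass in edgeR, while DESeq2 on the same 8 libraries called the difference between hairpins (adjusted p = 0.00697).

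Stau2, a double-stranded RNA-binding protein of RNA transport granules, fell with both hairpins. It was at 28.5, 26.6 and 29.4 CPM in shCtr, at 10.2, 11.6 and 11.2 in shOSGEP#1 and at 10.5 and 9.25 in shOSGEP#2, with 0 counts in the shallow library. On the log2 scale it fell by 1.37 with shOSGEP#1 (edgeR adjusted p = 0.000767) and by 1.60 with shOSGEP#2 (adjusted p = 0.000571). Both calls were kept whichever 1 of the 8 libraries was left out, with edgeR adjusted p of at most 0.00599, and were lost in the edgeR fit of all 9 libraries.

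Eif4g3, a scaffold of the cap-binding complex, was at 101, 80 and 77.5 CPM in shCtr, at 171, 139 and 183 in shOSGEP#1 and at 171 and 186 in shOSGEP#2, so both groups were above shCtr. The shallow library was at 438 CPM. It rose by 0.92 with shOSGEP#1 (edgeR adjusted p = 0.00261) and by 0.96 with shOSGEP#2 (edgeR adjusted p = 0.00319). The first call ended without shCtr replicate 2 or 3, and the second also without either shOSGEP#2 library, with log2 fold changes of 0.83 to 1.04 and 0.89 to 1.09 and edgeR adjusted p up to 0.0212 and 0.0202. Eif3a, a subunit of an initiation factor, rose by 0.67 with shOSGEP#1 (320 ± 11 to 515 ± 67 CPM, edgeR adjusted p = 0.00725), a call that ended without any 1 of the 6 shCtr and shOSGEP#1 libraries (log2 fold change 0.57 to 0.75, adjusted p up to 0.0439). Eif4g1, which lies outside the rule for named genes and is given after its values were seen, rose by 0.63 (edgeR adjusted p = 0.00935). The initiation factors Eif4g2, Eif4a1 and Eif3b of the same list did not pass with shOSGEP#1, at −0.18, 0.17 and 0.10.

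Serbp1, which encodes a ribosome-bound RNA-binding protein, was at 276, 278 and 341 CPM in shCtr, at 448, 489 and 529 in shOSGEP#1 and at 265 and 255 in shOSGEP#2, with 104 CPM in the shallow library. It rose by 0.70 with shOSGEP#1 (edgeR adjusted p = 0.00737) and was lower with shOSGEP#2 than with shOSGEP#1, at −0.99 (edgeR adjusted p = 0.00203). The first call ended without shCtr replicate 1 or 2 or any shOSGEP#1 library (0.64 to 0.81, adjusted p up to 0.05) and the second without shOSGEP#2 replicate 3 (adjusted p = 0.0208). Celf1, a regulator of mRNA decay, fell by 0.86 with shOSGEP#2 (339 ± 31.5 to 199 ± 22 CPM, edgeR adjusted p = 0.00518), but not without any 1 of the shCtr or shOSGEP#2 libraries (−0.95 to −0.79, adjusted p up to 0.029). Larp4, which binds poly(A), was at 375 ± 96.9 CPM in shOSGEP#1 and 180 ± 53 in shOSGEP#2, a difference of −1.15 (edgeR adjusted p = 0.00671) that was called in 1 of the 8 fits that left out a library, the one without shOSGEP#1 replicate 1 (−1.45 to −0.90, adjusted p up to 0.0436). Ythdf2, a reader of methylated adenosine that is likewise outside the rule and given after its values were seen, was at −0.67 between hairpins (edgeR adjusted p = 0.00858).

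P-bodies are neighbouring condensates where mRNA is stored and decapped. Of 18 P-body genes, all tested, edgeR called 0 with shOSGEP#1, beside 9.67% of all genes. An unadjusted p under 0.05 was reached by 5, 5 and 8 in the 3 comparisons, beside 34.9%, 35.6% and 37.1% of all genes. Tnrc6a alone, a scaffold of microRNA silencing, passed in edgeR with shOSGEP#2, against shCtr and against shOSGEP#1, 1 of 18 beside 9.55% and 10.8% of all genes. DESeq2 on the same 8 libraries called Tnrc6b higher with shOSGEP#1 (adjusted p = 0.00455). Between hairpins it also called Dcp1b higher and Tnrc6b, Patl1 and Pan3 lower (adjusted p = 0.00383, 0.00114, 0.00727 and 0.00882). Over all 15710 genes, those without an adjusted p included, it called 2419 and 2592 in these comparisons. The medians were −0.071, −0.13 and −0.13. Tnrc6a was at 120, 109 and 93.7 CPM in shCtr, at 107, 100 and 86.6 in shOSGEP#1 and at 231 and 176 in shOSGEP#2, both above all shCtr and shOSGEP#1 libraries. The shallow shOSGEP#2 library went the other way, with 0 counts. It rose by 0.83 against shCtr (edgeR adjusted p = 0.00852), a call kept only without shOSGEP#1 replicate 3 or shOSGEP#2 replicate 3 (0.58 to 1.04, adjusted p up to 0.0578). Against shOSGEP#1 it was at 0.97 (edgeR adjusted p = 0.00319), lost without shOSGEP#1 replicate 2 or shOSGEP#2 replicate 1 (0.73 to 1.19, adjusted p up to 0.0237). With all 9 libraries these values were 0.26 and 0.42, and neither was called. Ddx6, the helicase of P-bodies and the highest of the list per kb, was at 638 ± 48.1, 614 ± 27.6 and 642 ± 87.6 CPM and did not pass.

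Of 17 regulators of granule assembly and clearance, 16 were tested and Usp13 was not. In edgeR 1 rose and 0 fell with shOSGEP#1, and 0 rose and 3 fell with shOSGEP#2. Against shOSGEP#1, 1 was higher and 3 were lower with shOSGEP#2. Over all genes 9.67%, 9.55% and 10.8% passed. DESeq2 on the same 8 libraries also called Hdac6, Usp5, Prmt1 and Hspb8 lower with shOSGEP#1 (adjusted p = 0.00603, 0.00215, 0.00196 and 0.000238). With shOSGEP#2 it also called Csnk2a1 and Hspb8 lower and Faf2 higher (adjusted p = 0.00219, 0.00966 and 0.0098). Over all 15710 genes, those without an adjusted p included, it called 2419 and 2405. The medians were −0.21, −0.31 and −0.15, and 7, 9 and 6 were at an unadjusted p under 0.05, beside 34.9%, 35.6% and 37.1% of all genes. Bag3, a co-chaperone of HSP70 in granule quality control, was at 95.4, 87.7 and 58.8 CPM in shCtr, at 59, 53.5 and 44 in shOSGEP#1 and at 17.2 and 18.4 in shOSGEP#2. The shOSGEP#2 libraries were below all others, and the shallow library had 0 counts. Bag3 fell by 2.27 against shCtr (edgeR adjusted p = 0.000206) and was at −1.63 against shOSGEP#1 (edgeR adjusted p = 0.000741). Both calls were kept whichever of the 8 libraries was left out, with edgeR adjusted p of at most 0.00754.

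Dyrk3, a kinase that dissolves stress granules, was at 17.3, 16.5 and 23.3 CPM in shCtr, at 21.6, 15 and 32.4 in shOSGEP#1 and at 5.11 and 7.91 in shOSGEP#2, with 0 counts in the shallow library. It fell by 1.66 against shCtr (edgeR adjusted p = 0.0074) and was at −1.92 against shOSGEP#1 (edgeR adjusted p = 0.00317). The first call was kept only without shOSGEP#1 replicate 2 or 3 (−1.96 to −1.40, adjusted p up to 0.0411), and the second ended without either shOSGEP#2 library (−2.22 to −1.58, adjusted p up to 0.0219). Prmt5, an arginine methyltransferase, was at 149, 139 and 116 CPM in shCtr, at 139, 125 and 150 in shOSGEP#1 and at 87.8 and 54.2 in shOSGEP#2, with 68.5 CPM in the shallow library. Prmt5 fell by 1.01 against shCtr. It was at −1.03 against shOSGEP#1. Both calls (edgeR adjusted p = 0.00886 and 0.0075) ended without any 1 library other than shOSGEP#2 replicate 1, with values between −1.44 and −0.68 and between −1.46 and −0.70 and adjusted p up to 0.0607 and 0.0543.

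Hdac6, a deacetylase required for granule formation, did not overlap between hairpins in the deep libraries, at 35.2, 35.9 and 30.7 CPM in shOSGEP#1 and 55.2 and 70.5 in shOSGEP#2. In shCtr it was at 48.2, 53.7 and 46.6 CPM, above all of shOSGEP#1. Against shCtr it was at −0.56 with shOSGEP#1 (edgeR adjusted p = 0.024), past the threshold with DESeq2 on the same 8 libraries (adjusted p = 0.00603). With shOSGEP#2 it was at 0.25 (edgeR adjusted p = 0.323). The shallow shOSGEP#2 library, at 24.6 CPM, was below all of shOSGEP#1, and with all 9 libraries the difference between hairpins was 0.43 and not called. With 8 libraries the difference of 0.80 passed (edgeR adjusted p = 0.00644), but was called in only 2 of the 8 fits that left out a library, those without shCtr replicate 3 or shOSGEP#2 replicate 1 (0.65 to 0.94, adjusted p up to 0.0524). Faf2, an adaptor of VCP, rose by 0.85 with shOSGEP#1 (46.9 ± 2.15 to 85.4 ± 22.4 CPM, edgeR adjusted p = 0.00785). That call ended without any 1 shCtr library or shOSGEP#1 replicate 2 or 3 (0.62 to 0.99, adjusted p up to 0.039). In the deep shOSGEP#2 libraries Faf2 was at 77.6 and 83.7 CPM, also above every shCtr library. Its log2 fold change there was 0.69 (edgeR adjusted p = 0.0327), past the threshold with DESeq2 on the same 8 libraries (adjusted p = 0.0098). Vcp itself, the segregase that clears granules and the highest of the list per kb, was at 1039 ± 97.7, 900 ± 96.2 and 782 ± 53.2 CPM and did not pass. For the P-body genes and the regulators too, edgeR with all 9 libraries called 0 in each comparison. At an unadjusted p under 0.05 were 0, 0 and 0 P-body genes and 2, 4 and 3 regulators, beside 5.03%, 10.1% and 10.7% of all genes.

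Codons beginning with A, which the tRNAs modified through OSGEP read, made up between 20.9% (Atxn2l) and 29% (Tia1) of the coding sequences of the 10. Their median was 25.7%, beside 26.9% for 12598 tested genes with a coding sequence, whose middle range between quartiles was 23.6% to 29.8%. The member with the lowest share, Atxn2l, was the one whose mRNA passed the test with shOSGEP#1 and between hairpins. With shOSGEP#2 against shCtr it did not pass, at a log2 fold change of 0.038 (edgeR adjusted p = 0.92). No relation between codons and change was tested. Their transcripts had a median of 4262 bases beside 2802, although that of G3bp2, at 1884, was longer than only 27.9% of those tested. Atxn2l was GC-rich at 58.8%, above 90.9% of tested genes, whereas Tia1, Tial1 and Ddx3x, at 41.2%, 41.3% and 41%, were among the lowest.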

How the data were processed

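RNA bound to FLAG-tagged RIG-I was counted in 9 libraries of 3 groups. The authors made the deposited whole-number counts per gene with bcl2fastq, TrimGalore, STAR and Salmon on GRCm39. Whether these are rounded Salmon estimates, and how reads shared by similar genes were assigned, is not given in the sources used here. From these counts, CPM were computed over each library's total. Tests used edgeR 4.0.16 in R 4.3.3 (quasi-likelihood, TMM, filterByExpr) on 8 libraries with group coefficients, and Benjamini-Hochberg adjustment over all 12744 genes with a threshold of 0.01. shOSGEP#2 replicate 2, at 568995 counts, was left out and shown apart. Standard errors are the absolute log2 fold change over the square root of F, and 95% intervals follow from them.

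The members and lists were chosen with earlier results of these data known. Named genes were the 10 members, their paralogs, Osgep and Ddx58, and in each list the highest gene per kb and those past the threshold, at most 6 by smallest p. The lists were stress granule partners, P-body genes and granule regulators, beside markers of melanocytic cells, fibroblasts, leukocytes, keratinocytes and endothelium. Groups were called not overlapping where every library of 1 lay above every library of the other in CPM.

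Alternatives were all 9 libraries, DESeq2 1.42.0, limma-voom (limma 3.58.1) with sample quality weights, RLE scaling, library totals, no filter, at least 10 counts in every library, only the 2 groups compared, a replicate block, an adjusted p under 0.05 and leaving out each library in turn. DESeq2 on all 9 libraries was chosen after seeing the data. Lengths, GC and codons came from GENCODE vM21, an annotation of an earlier build, matched by gene, and overlaps of exons were counted within it. The transcript used for each gene was the one with the longest coding sequence, and the shortest of these where several tied. Whether it is the form present in these cells was not tested. Floors of 3 counts and Wilson intervals describe counting error alone: the sources used here name no molecular identifiers, so amplified copies may count as separate reads. Replicates of each group differed by more than sampling noise. The edgeR and DESeq2 steps were tested on simulated data.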

Additional observations from a re-analysis of the deposited data

Results flagged for a closer look

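Genes are given here where the hairpins differed in the test of the difference itself, as log2 fold changes of shOSGEP#2 against shOSGEP#1. Among the stress granule core genes this was Atxn2l, at 0.94. Among the partners Serbp1 was at −0.99 and Larp4 at −1.15, and Ythdf2, outside the rule for named genes, at −0.67. The P-body gene Tnrc6a was at 0.97. Among the regulators Bag3 was at −1.63, Dyrk3 at −1.92, Prmt5 at −1.03 and Hdac6 at 0.80. Both hairpins target Osgep, which was lower in every deep library of both groups than in shCtr. Melanocytic markers differed between the same groups, and so did the summed fibroblast markers, at 4.49 ± 1.2 and 25.1 ± 12.3 CPM. Every shOSGEP#1 library also had a higher share of mitochondrially encoded counts (0.347% to 2.96%) than the deep shOSGEP#2 libraries (0.211% and 0.268%). The part of these differences was not tested.

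In the shallow library, shOSGEP#2 replicate 2, which these comparisons did not use, 6 of 31 named genes (19.4%) lay above every shCtr library, beside 19.8% of the genes tested, and 23 (74.2%) lay below every one, beside 75.5%. The 6 are given next. G3bp1 was at 582 CPM there (highest shCtr library 341), Atxn2 at 172 (131) and Ubap2 at 237 (167). Of the listed genes, Eif3a was at 937 CPM (332), Eif4g3 at 438 (101) and Faf2 at 121 (49.3). This library held 568995 counts, and 67.2% of the genes tested had 0 counts in it, as did Tia1, Tial1, Usp10, Ubap2l and Ddx3x. The part of depth in these values was not tested.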

How the results depend on the processing

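Without the shallow library in the edgeR fit, members called were 1, 0 and 1 with shOSGEP#1, with shOSGEP#2 and between hairpins. With shOSGEP#2 the number was 0 under each alternative run. With shOSGEP#1 it was 2 with DESeq2, without a filter, with at least 10 counts in every library, with limma-voom and at an adjusted p under 0.05 (Atxn2l and Atxn2), and 0 with all 9 libraries by edgeR or DESeq2. Between hairpins it was 3 at an adjusted p under 0.05 (Atxn2l, Usp10, Tia1), 2 with DESeq2 (Atxn2l, Usp10), and 0 with all 9 libraries by edgeR or DESeq2, with limma-voom and with only the 2 groups compared. Leaving out 1 library gave 0 to 1 in both. The common dispersion, the spread between replicates that edgeR estimates over all genes, was 0.0692 with 8 libraries and 0.42 with all 9. For Atxn2l with shOSGEP#1 the log2 fold change was −0.90 and −0.91 in these fits, with SE 0.194 and 0.367. The cause was not tested, except that a looser threshold adds calls by construction.

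All genes called, 1232, 1217 and 1375, became 2797, 2674 and 2952 at an adjusted p under 0.05, 2419, 2405 and 2592 with DESeq2, 0, 0 and 0 with all 9 libraries, and 122, 349 and 413 with DESeq2 on all 9. limma-voom called 3317 with shOSGEP#1, and the 2 groups alone gave 737 between hairpins. Leaving out 1 library gave 318 to 1458, 518 to 1471 and 743 to 1504.

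Of the alternative log2 fold changes of members, 481 kept direction and side of the threshold, 34 reversed, 19 were no longer called and 6 became called. Reversals were of values near 0 in the fit of 8 libraries, or came with the shallow library. Caprin1 with shOSGEP#1 was 0.0059 under RLE, 0.0073 with totals, 0.006 with DESeq2, 0.0026 with at least 10 counts and 0.015 with limma-voom, and −0.075 to 0.08 on leaving out 1 library. With shOSGEP#2, G3bp1 was 0.019 with all 9 libraries and 0.054 with totals (−0.19 to 0.10 on leaving out 1), G3bp2 −0.22 with all 9, and Atxn2l −0.23 with all 9 and −0.075 with limma-voom (−0.35 to 0.34). Between hairpins, with all 9 libraries, G3bp1 was 0.0077 (0.021 with totals, −0.21 to 0.078 on leaving out 1), G3bp2 −0.29 and Tial1 −0.40. DESeq2 on all 9 libraries gave 0.0085 for Caprin1 with shOSGEP#1, 0.027, −0.24 and −0.24 for G3bp1, G3bp2 and Atxn2l with shOSGEP#2, and −0.34 and −0.48 for G3bp2 and Tial1 between hairpins. With shOSGEP#1, leaving out 1 library gave −0.10 to 0.17 for G3bp1, −0.0084 to 0.13 for G3bp2 and −0.11 to 0.23 for Ubap2l. The cause was not tested.

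Replicate numbers were not taken to pair the libraries, since same-numbered deviations correlated between −0.00337 and 0.18 over 7 pairs, not above 0.1 in each. These pairs are not independent, because the deviations of the deep shOSGEP#2 libraries mirror each other. The column names carry the same numbers, but whether same-numbered libraries shared an experiment is not given in the sources used here. The mean of the same-numbered correlations was 0.0809. The mean for other pairs, −0.0398, adds nothing to it, since deviations centred within each group largely fix it. The highest correlation of 6 of 8 libraries was with their own number, a hint of pairing from the data. A replicate block called 1, 0 and 2 members, adding Ubap2l between hairpins (log2 fold change −0.77, edgeR adjusted p = 0.00951), and 1380, 1238 and 1393 genes.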
